A study of Mus musculus with 34 samples.

Results

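The Schlafen genes Slfn1, Slfn2, Slfn3, Slfn4, Slfn5, Slfn8 and Slfn9 were followed in the left ventricle (LV) of CFW mice after myocardial infarction (MI). The members were taken by gene symbol, 7 of the 14552 genes of a first table and 7 of the 17406 genes of a second, and all 7 had a mean of at least 1 CPM (read counts relative to the scaled library size) in both tables. The family was put forward because of the level of Slfn4 24 h post-MI against sham in the first table. Comparisons with those 24 h libraries are therefore given as a description, without a test. They enter the test of 4 h against sham only through the estimate of spread. The left anterior descending artery was tied off for good to cause MI, and poly(A) RNA of the LV was sequenced, with 1 library per sample.

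The first table held 10 uninjected libraries, namely 3 sham (titled sham, though another label gives no operation), 3 taken 4 h post-MI and 4 taken 24 h post-MI. The second table held 24 libraries, of which 2 came from uninjected hearts after a sham operation and are labelled 4 h. The other hearts of that table had MI and were injected in the border zone, right after ligation, with chemically modified mRNA (modRNA). Luc modRNA, which encodes luciferase, was given in 4 libraries at 4 h, 3 at 24 h and 4 at 48 h, and a modRNA labelled AC in the same numbers. The tables were normalized separately, so no test was made between them. Within the second table the collection times carry different series of library names, so that time and library series cannot be told apart, whereas AC and Luc were compared within a time.

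By the size of a single read, the libraries of the first table held an estimated 12553519 to 18952669 reads on the listed genes, and the depth of the second table is unknown. Pearson's r between libraries of a group, over genes, was between 0.969 and 0.998. The 8 cardiomyocyte markers, such as Myh6 and Tnnt2, summed to between 18941 and 73491 CPM in every library. Asah1, which encodes acid ceramidase, was between 5296 and 13703 CPM in the AC libraries at 4 h and between 23.9 and 27.2 CPM in the Luc libraries at 4 h. It stayed at 104 to 305 CPM with AC against 22.0 to 24.7 CPM with Luc at 24 h. In bulk tissue, fewer cells of a type and less RNA per cell cannot be told apart.

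Schlafen genes encode intracellular proteins of vertebrates that share a conserved core domain able to bind or cut RNA. The shorter mouse proteins (Slfn1 and Slfn2) hold little beyond this core, Slfn3 and Slfn4 are of intermediate length, and Slfn5, Slfn8 and Slfn9 carry an added helicase-like domain. Many members are induced by type I interferon, through transcription factors that bind the interferon-stimulated response element (ISRE), and several are known from the growth control of T cells and from the maturation of monocytes and macrophages. Type I interferon is itself made when sensors detect foreign or misplaced nucleic acids, and neutrophils and monocytes enter the infarcted heart within the first days.

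The 7 genes lie side by side on chromosome 11 of mm10, from 82952102 to 83215155, within 263053 bases. In the order of the chromosome, as the files give the coordinates, Slfn5 spans 82952102 to 82964851 on the plus strand. Slfn9 (82980303 to 82991831) and Slfn8 (83002158 to 83020811) follow on the minus strand. Slfn2 (83065112 to 83070679), Slfn1 (83116845 to 83122660), Slfn4 (83175186 to 83190217) and Slfn3 (83191330 to 83215155) are again on the plus strand. The reads were assigned to whole genes, and their transcripts span between 2 exons (Slfn1 and Slfn2) and 8 exons (Slfn4).

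The promoters of the 7 members, 250 bases before to 50 after each start site in RefSeq on GRCm38.p6, fell into separate groups by the letters they held. The ISRE letters GAAANNGAAA, searched on both strands, stood in the promoters of Slfn5, Slfn8 and Slfn9, against 3.99% of the 27025 genes with a promoter in the same table. They are shown because these are the long members, and capitals mark the ISRE letters. The mean levels of these 3 among the sham and Luc groups were highest at 24 h, as were those of Slfn2 and Slfn3, whose promoters do not hold these letters.
Slfn5, chr11:82951947-82951956, -155 from the start site, plus strand: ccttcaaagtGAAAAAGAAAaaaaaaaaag
Slfn9, chr11:82991866-82991875, -45 from the start site, plus strand: ttgtttttggGAAAACGAAActgctcggat
Slfn8, chr11:83020849-83020858, -48 from the start site, plus strand: tgcttttgggGAAAACGAAActgctcaaat

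The letters AGGAAGT, a form of the site of PU.1, a transcription factor of myeloid cells, stood in the promoters of the other members, Slfn1, Slfn2, Slfn3 and Slfn4, against 10.7% of the 27025 genes. They are shown because these members hold no ISRE letters, and capitals mark the PU.1 letters. The letters do not separate Slfn1 and Slfn4, which were higher at 48 h than at 24 h with Luc, from Slfn2 and Slfn3, which were lower.
Slfn2, chr11:83065057-83065063, -55 from the start site, minus strand: tgtcaccctccAGGAAGTgaaagccctgc
Slfn1, chr11:83116746-83116752, -74 from the start site, minus strand: gatgtcactccAGGAAGTgtgagacatct
Slfn4, chr11:83175113-83175119, -73 from the start site, minus strand: ttcgtcactccAGGAAGTataaccggaag
Slfn3, chr11:83191271-83191277, -59 from the start site, plus strand: cggagctgggcAGGAAGTggatgacagaa
Slfn3 held the letters once more on the other strand at -42. The letters of an NF-kB site (GGGANNTTCC) stood in no promoter of the 7, against 1.63% of the genes. Neither a match nor its absence shows whether a factor binds. The stretches around the matches are much alike in Slfn1, Slfn2 and Slfn4, and in Slfn8 and Slfn9, so these matches are not independent of each other.

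The members are close copies of each other in part, which limits how far the single 50-bp reads of the first table can tell them apart. Over aligned transcript bases (GENCODE M21), Slfn3 and Slfn4 were 93.1% identical and Slfn8 and Slfn9 90.7%. Of the 50-base windows of each transcript, 15.4% were shared exactly with another Schlafen gene for Slfn8, 14.3% for Slfn3, 11.2% for Slfn9, 8.37% for Slfn4, 4.27% for Slfn2 and 0.606% for Slfn1, and none of the windows of Slfn5 was. All shared windows of Slfn3 matched Slfn4. In the first table such reads were split by an expectation-maximization algorithm, so the lower members of a close pair, Slfn3 beside Slfn4 and Slfn9 beside Slfn8, are uncertain.

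In uninjected hearts of the first table, Slfn5 was the leading Schlafen gene in sham LV and Slfn4 the leading one 24 h post-MI. Slfn4, the member best known from myeloid cells, was at 0.23, 0.17 and 0.47 CPM in the sham libraries D, H and I. These values rest on an estimated 4.32 to 14.4 reads each. At 4 h post-MI it was at 0.60, 2.04 and 0.96 CPM, and at 24 h at 632, 613, 131 and 432 CPM in libraries C, D, G and H. Every 24 h library was above every other library of the table, and library G was the lowest of the 24 h group. The ratio of mean CPM at 24 h to sham was 1552 ± 1150 (SD propagated from 4 and 3 libraries), and that of 24 h to 4 h was 376 ± 303. The latter was 576 without the 4 h library D.

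Slfn1, the founding member of the family, had the same order of 24 h libraries. It was at 0.33, 0.65 and 0.36 CPM in sham, at 0.41, 1.20 and 0.74 CPM at 4 h, and at 101.9, 93.9, 20.5 and 50.01 CPM at 24 h. The 24 h mean was 150.4 ± 105.1 times the sham mean. Slfn2, which protects tRNA from cleavage in T cells, was already present in sham hearts, at 5.93, 5.60 and 4.11 CPM. It was at 5.33, 9.48 and 5.12 CPM at 4 h and at 130.1, 110.2, 39.1 and 83.6 CPM at 24 h, and the 24 h mean was 17.4 ± 8.2 times the sham mean. Here too library G was the lowest at 24 h, and no 24 h library overlapped the sham or 4 h libraries.

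Among the long members, Slfn8 was higher and Slfn5 lower at 24 h in this table. Slfn8 was at 2.35, 2.16 and 2.28 CPM in sham, 1.02, 2.38 and 1.35 CPM at 4 h, and 28.2, 21.4, 11.4 and 18.9 CPM at 24 h, a mean 8.82 ± 3.10 times that of sham. Slfn5 had 117.2, 99.5 and 100.4 CPM in sham, 100.7, 108.6 and 93.4 CPM at 4 h and 80.7, 87.5, 92.0 and 59.3 CPM at 24 h. Its 24 h libraries were all below the sham libraries, with a ratio of means of 0.756 ± 0.154. Slfn3 and Slfn9 stayed low, between 1.55 and 4.29 CPM and between 0.87 and 3.27 CPM over all 10 libraries, and their 24 h and sham libraries overlapped. Of the 7 members, 4 were thus above sham in every 24 h library, 1 below and 2 overlapping, while 35.3% of the 12487 genes tested were above sham in every 24 h library and 28.7% below. The family was chosen from this contrast, and nothing is read from these shares.

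**Figure D1:**
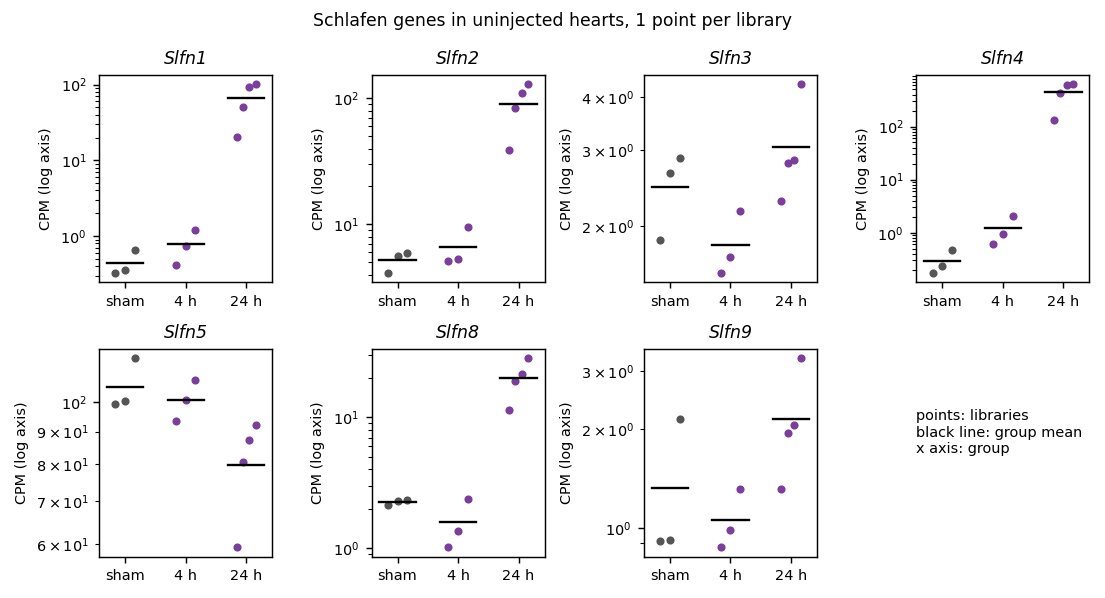
CPM of each Schlafen gene on a log axis in the uninjected libraries (3 of sham, 3 at 4 h and 4 at 24 h), with 1 point per library and the group mean as a black line. Slfn4 is at 0.17 to 0.47 CPM in sham and at 131 to 632 CPM at 24 h, whereas Slfn5 is at 99.5 to 117.2 CPM in sham and at 59.3 to 92.0 CPM at 24 h.

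Levels can be compared between genes only per length. Per kb of transcript, Slfn5 had the highest level in sham LV, at 17.7 ± 1.7 CPM per kb (SD, n = 3), followed by Slfn2 at 3.13 ± 0.58, Slfn3 at 1.36 ± 0.30 and Slfn8 at 0.564 ± 0.025. Slfn1 (0.238 ± 0.095), Slfn9 (0.229 ± 0.122) and Slfn4 (0.074 ± 0.039) were lowest, and the ranges of Slfn1 and Slfn9 overlapped. At 24 h the order was Slfn4 at 114.2 ± 58.7 CPM per kb (n = 4), Slfn2 at 54.5 ± 23.6, Slfn1 at 35.7 ± 20.5, Slfn5 at 13.4 ± 2.4, Slfn8 at 4.98 ± 1.73, Slfn3 at 1.68 ± 0.47 and Slfn9 at 0.372 ± 0.142. The neighbours Slfn4 and Slfn2, Slfn2 and Slfn1, and Slfn1 and Slfn5 overlapped over libraries. Slfn5 made up between 73.8% and 78.0% of the family's summed level per kb in sham and between 4.27% and 17.6% at 24 h, and Slfn4 between 0.195% and 0.548% in sham and between 37.7% and 53.9% at 24 h.

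Cell markers differed in the same libraries. The summed level of 16 neutrophil markers (15 in this table, Camp not among them), such as S100a8 and S100a9, was between 3.84 and 5.46 CPM in sham, between 18.1 and 60.1 CPM at 4 h and between 506 and 2454 CPM at 24 h. At 24 h it was 2454, 2421, 506 and 1222 CPM in libraries C, D, G and H, the order that Slfn1, Slfn2, Slfn4 and Slfn8 had too. The 32 interferon-stimulated genes summed to between 226 and 280 CPM in sham, between 215 and 222 CPM at 4 h and 1199, 1130, 501 and 781 CPM at 24 h. The 16 monocyte and macrophage markers summed to between 173 and 269 CPM in sham and to 1192, 884, 592 and 730 CPM at 24 h. Both sums thus had that same order of 24 h libraries. The 8 cardiomyocyte markers summed to between 43296 and 45682 CPM in sham and between 18941 and 32596 CPM at 24 h, where they were highest in library G. Their part in the levels of the Schlafen genes was not tested.

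At 4 h post-MI without injection, no Schlafen gene differed from sham past the threshold. With limma on log2(CPM + 1) and Benjamini-Hochberg adjustment over 12487 genes, 0 of 7 members were called, 0 had an unadjusted p under 0.05, and limma-voom on estimated reads also called 0. The model held the 24 h libraries too, which add to the estimate of spread. A fit of the sham and 4 h libraries alone called 0 members as well. Of all genes tested, 1.55% were called higher and 0.817% lower. Slfn4 had the largest value, a log2 fold change of 0.72 (SE 0.49, adjusted p = 0.505), although its 4 h libraries did not overlap the sham libraries. Slfn2 was at 0.27 (SE 0.37, adjusted p = 0.782) and Slfn5 at -0.07 (SE 0.15, adjusted p = 0.885). None of the 32 interferon-stimulated genes was called either, with a median log2 fold change of -0.14 beside -0.03 over all genes, and 1 of the 13 neutrophil markers tested was. Of the erythroid markers 4 of 5 were called higher, with a median of 1.34, and their part in the levels was not tested.

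At 4 h after MI and Luc modRNA, no Schlafen gene passed the threshold against sham in the model of all libraries. The sham hearts were not injected, so MI and injection cannot be told apart in this comparison. Slfn2 was at 10.3 and 5.61 CPM in the sham libraries and at 29.5, 15.7, 27.8 and 14.8 CPM in the Luc libraries at 4 h, without overlap (log2 fold change 1.34, SE 0.41, adjusted p = 0.114). Slfn8 was at 2.06 and 1.32 CPM in sham and at 7.33, 4.68, 8.25 and 4.04 CPM with Luc, again without overlap (1.36, SE 0.53, adjusted p = 0.245). Slfn4 was at 0.11 and 0.21 CPM in sham and at 4.16, 1.14, 4.12 and 1.32 CPM with Luc (1.55, SE 0.69, adjusted p = 0.309). By limma over the 24 libraries 0 of 7 members were called, beside 1.25% of the 12555 genes called higher and 0.295% lower, and 4 of 7 had an unadjusted p under 0.05. A fit of the Luc 4 h and sham libraries alone called Slfn1, Slfn2, Slfn4, Slfn5 and Slfn8 higher, and a pseudocount of 0.1 called Slfn4 higher. The share of all genes called under these settings is not given, so these counts are not read as a result about the family.

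At 24 h after MI and Luc modRNA, all 7 Schlafen genes were above sham. The sham hearts were uninjected and labelled 4 h. MI, injection, collection time and library series therefore cannot be told apart in this comparison. Here 7 of 7 members were called higher, beside 25.3% of the genes tested called higher and 8.79% lower. The median log2 fold change of the members was 2.81 and that of all genes 0.16. Slfn5, an interferon-induced regulator of transcription, was at 76.3 and 89.2 CPM in sham and at 341, 492 and 276 CPM in the Luc libraries A, C and D (log2 fold change 2.11, SE 0.36, adjusted p = 1.4e-04). Slfn8 was at 22.5, 52.2 and 16.7 CPM with Luc (3.40, SE 0.56, adjusted p = 9.5e-05), and Slfn2 at 83.8, 87.3 and 52.7 CPM (3.09, SE 0.43, adjusted p = 1.7e-05). For these 3 genes library C was the highest of the Luc group and library D the lowest, and no Luc library overlapped sham.

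Slfn4 at 24 h was at 56.7, 27.3 and 9.26 CPM in the Luc libraries A, C and D, with a log2 fold change against sham of 4.47 (SE 0.72, adjusted p = 8.3e-05). Library A, not C, was its highest, as for Slfn1, which was at 13.4, 10.9 and 5.09 CPM (2.81, SE 0.46, adjusted p = 9.0e-05) against 0.75 and 0.19 CPM in sham. On the log2(CPM + 1) scale these values understate the change of genes that are near 0 in sham, and with a pseudocount of 0.1 they were 6.60 for Slfn4 and 4.21 for Slfn1. Slfn3 was at 8.02, 11.6 and 3.75 CPM with Luc and at 1.40 and 1.07 CPM in sham (1.87, SE 0.46, adjusted p = 0.0033). Slfn9 was at 4.01, 11.8 and 4.35 CPM with Luc and at 0.70 and 0.36 CPM in sham (2.20, SE 0.53, adjusted p = 0.0028). All 7 calls stood when any single library was left out.

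Against Luc at 4 h, the Luc libraries at 24 h were also higher for 7 of 7 members, beside 24.5% of the genes tested higher and 7.80% lower. The log2 fold changes were between 1.43 (Slfn9, SE 0.44, adjusted p = 0.017) and 2.92 (Slfn4, SE 0.60, adjusted p = 0.0011). The call of Slfn9 was lost without the 24 h library C, where its log2 fold change was 0.99, and under rescaling to equal totals. This comparison and that with sham share the 24 h libraries.

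**Figure D2:**
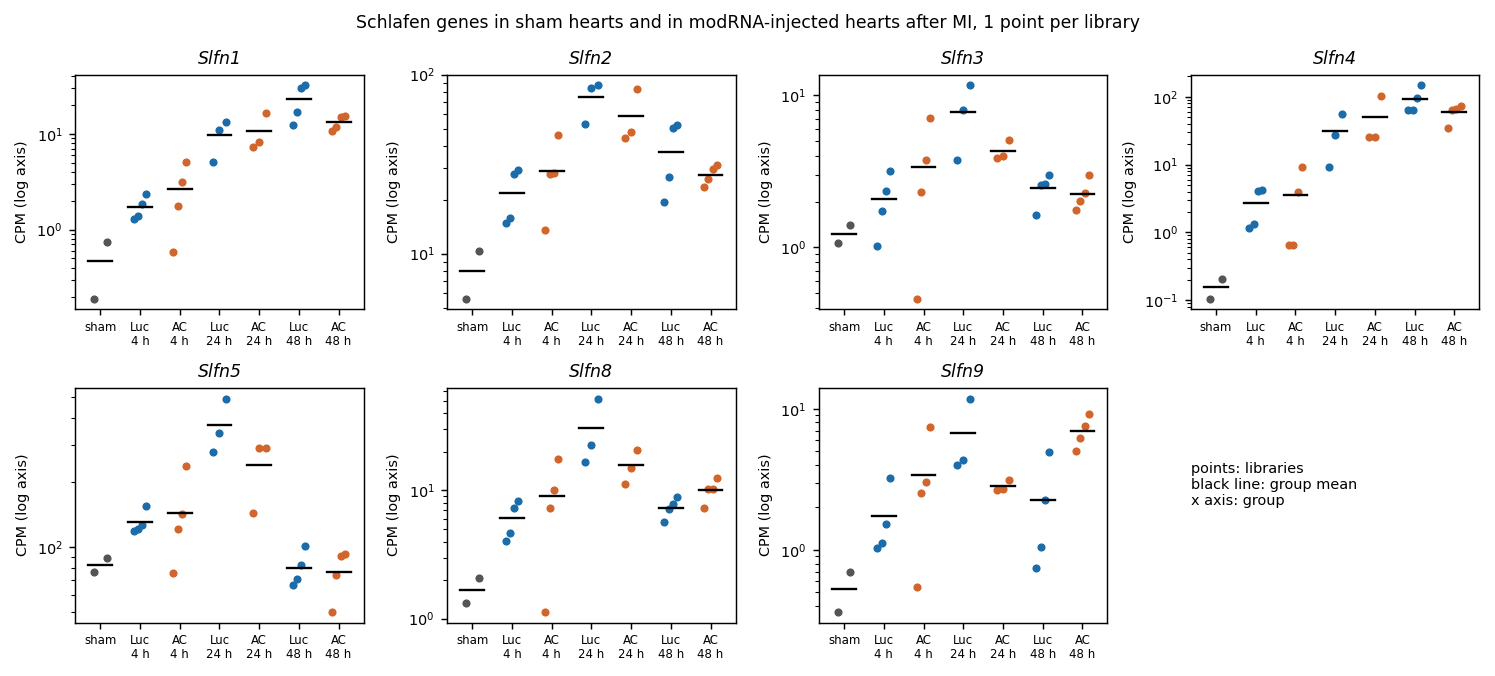
CPM of each Schlafen gene on a log axis in the 24 libraries of the second table, with 1 point per library, Luc in blue, AC in orange, sham in grey, and the group mean as a black line. Slfn5 peaks at 276 to 492 CPM in the Luc libraries at 24 h, whereas Slfn4 is highest at 48 h with Luc, at 63.0 to 148.5 CPM.

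At 48 h with Luc modRNA, Slfn1 and Slfn4 were higher than at 24 h, and Slfn2, Slfn3, Slfn5, Slfn8 and Slfn9 were lower. Time and library series cannot be told apart here. Of the genes tested, 9.32% were called higher and 32.6% lower in this comparison, in which all 7 members were called. Slfn4 was at 95.4, 64.6, 148.5 and 63.0 CPM in the Luc libraries 1, 2, 3 and 4 at 48 h, each above every Luc library at 24 h (log2 fold change 1.79, SE 0.60, adjusted p = 0.021). Slfn1 was at 32.2, 16.8, 30.3 and 12.3 CPM (1.13, SE 0.38, adjusted p = 0.022), and its lowest library at 48 h lay below the highest at 24 h. Slfn5 was at 82.1, 66.7, 100.7 and 70.9 CPM, without overlap with 24 h (-2.17, SE 0.30, adjusted p = 2.1e-05).

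Slfn8 was at 5.64, 7.81, 8.82 and 7.15 CPM at 48 h with Luc (log2 fold change against 24 h -1.76, SE 0.47, adjusted p = 0.0048). Slfn2 was at 52.2, 26.7, 50.6 and 19.5 CPM (-1.06, SE 0.36, adjusted p = 0.022), Slfn3 between 1.62 and 2.97 CPM (-1.26, SE 0.38, adjusted p = 0.012) and Slfn9 between 0.74 and 4.92 CPM (-1.28, SE 0.44, adjusted p = 0.023). The calls of Slfn5 and Slfn8 stood without any single library and under both rescalings. Rescaling to equal totals, which moved the median of all genes in this comparison by 0.43, left 4 members called, Slfn1 and Slfn4 higher and Slfn5 and Slfn8 lower, and the same 4 were called without the 24 h library C. Median-ratio rescaling ended the calls of Slfn2 and Slfn9, a fit of the Luc groups at 24 h and 48 h alone that of Slfn9, and a pseudocount of 0.1 that of Slfn1. Without the 48 h library 3, Slfn1, Slfn4 and Slfn9 were not called and 4 members were lower, and the other libraries whose removal ended a call were, for Slfn1, the 48 h library 1 and the 24 h library D, the latter also for Slfn4. For Slfn2 they were the 24 h library A and the 48 h libraries 2 and 4, and for Slfn9 the 48 h library 1.

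Against sham at 48 h, 4 of 7 members were called higher and none lower, beside 13.7% of the genes tested higher and 16.4% lower. Slfn4 had a log2 fold change of 6.26 (SE 0.69, adjusted p = 1.6e-06), Slfn1 of 3.95 (SE 0.43, adjusted p = 1.6e-06), Slfn2 of 2.03 (SE 0.41, adjusted p = 8.5e-04) and Slfn8 of 1.64 (SE 0.53, adjusted p = 0.022). The call of Slfn8 was lost without either sham library and with array weights. Slfn5 was at -0.06 (SE 0.34, adjusted p = 0.916), and its 48 h libraries, at 66.7 to 100.7 CPM, overlapped the sham libraries. The 48 h and 24 h comparisons with sham share the same 2 sham libraries. In both, MI, injection, collection time and library series cannot be told apart.

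**Figure D3:**
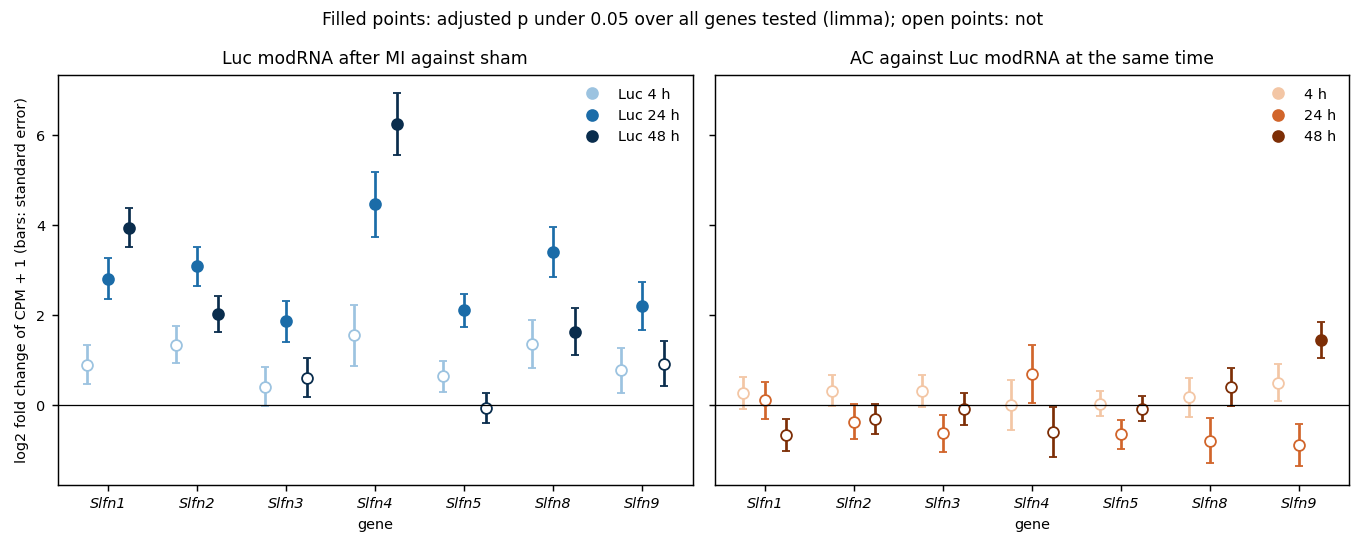
Log2 fold change of CPM + 1 for each Schlafen gene, with its standard error, for Luc against sham at 4, 24 and 48 h on the left and for AC against Luc at each time on the right, where filled points passed an adjusted p of 0.05 in limma. With Luc, Slfn4 is at 1.55, 4.47 and 6.26 and Slfn5 at 0.65, 2.11 and -0.06 at the 3 times, and among the AC points Slfn9 at 48 h alone is filled.

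The make-up of the family per kb differed between the times in the injected hearts, where time and library series cannot be told apart. Slfn5 took between 61.4% and 76.8% of the summed CPM per kb in sham, between 40.8% and 51.3% at 24 h with Luc and between 15.4% and 23.7% at 48 h. Slfn4 took between 0.128% and 0.269% in sham, between 2.60% and 10.3% at 24 h and between 26.9% and 35.7% at 48 h. Slfn2 held between 31.1% and 36.1% at 24 h and between 23.3% and 35.0% at 48 h with Luc. The mean level of Slfn5 per kb at 24 h with Luc was 61.8 ± 18.5 CPM per kb and that of Slfn2 44.8 ± 11.4 (n = 3), and the ranges of the 2 genes overlapped. In the first table, 24 h without injection, the leading gene was Slfn4, but the tables were normalized separately, and injection and table cannot be told apart.

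**Figure D4:**
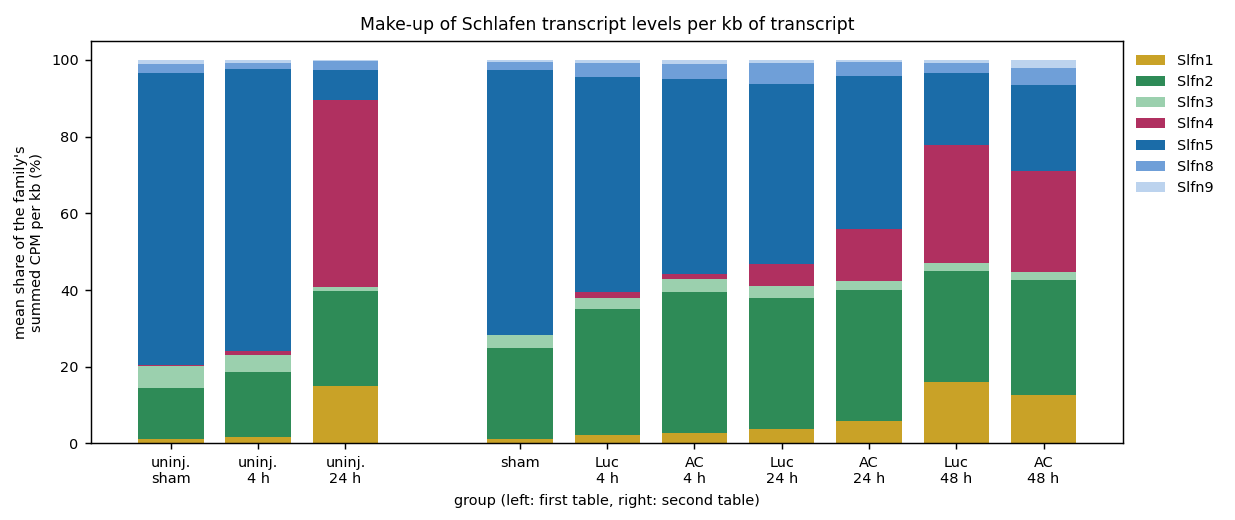
Mean share of each Schlafen gene in the family's summed CPM per kb of transcript (%), as stacked bars for the 3 groups of the first table and the 7 groups of the second. Slfn5 fills 76.0% of the sham bar and 7.93% of the uninjected 24 h bar of the first table, and Slfn4 fills 48.7% of the latter against 5.65% in the Luc bar at 24 h.

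Among the sham and Luc groups, the 32 interferon-stimulated genes had their highest sum at 24 h. The means of Slfn2, Slfn3, Slfn5, Slfn8 and Slfn9 were highest there too. The order of libraries within a group was not always shared. At 4 h with Luc, library 1 had the highest sum, 858 CPM, but the lowest Slfn5, 118.4 CPM. All 32 of the list were called higher at 24 h with Luc against sham (median log2 fold change 4.06), among them Irf7, the factor that amplifies interferon production (5.46, SE 0.44, adjusted p = 5.0e-08). Against 24 h, 31 of 32 were lower at 48 h, with a median of -2.48. The sum of the list was between 214 and 248 CPM in sham, 535 and 858 CPM at 4 h, 3288 and 6485 CPM at 24 h and 535 and 1157 CPM at 48 h with Luc. Within the 24 h Luc group it was highest in library C and lowest in library D, as were Slfn2, Slfn3, Slfn5 and Slfn8. Its part in the levels of the Schlafen genes was not tested.

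Neutrophil markers followed another course. Of 16, 13 were tested, of which 13 were higher than sham at 24 h with Luc and 12 at 48 h, and against 24 h, 7 were higher and 3 lower at 48 h. Their sum was between 8.63 and 28.2 CPM in sham, where Camp and Cd177 were at 0 in both libraries, between 105 and 208 CPM at 4 h, 369 and 1271 CPM at 24 h and 249 and 841 CPM at 48 h. At 24 h with Luc it was 1271, 369 and 423 CPM in libraries A, C and D, highest in A, as were Slfn1 and Slfn4, but lowest in C, whereas Slfn1 and Slfn4 were lowest in D. Most of this sum was Lcn2, an iron-sequestering protein of neutrophils and other cells, at 226.6 to 1069.8 CPM. S100a8 was at a mean of 22.8 CPM at 4 h and 11.1 CPM at 24 h with Luc, and S100a9 at 58.4 and 31.1 CPM. With AC at 24 h the sum was 857, 730 and 456 CPM in libraries A, C and D, while Slfn4 was highest in C. Of the 16 monocyte and macrophage markers, 6 were higher and 1 lower than sham at 24 h and 11 higher at 48 h, and against 24 h, 9 were higher and 1 lower at 48 h. Of the cardiomyocyte markers 8 of 8 and of the erythroid markers 5 of 5 were called lower at 48 h than at 24 h with Luc, with median log2 fold changes of -0.68 and -1.53 beside -0.25 over all genes. The cardiomyocyte sum was between 57645 and 73491 CPM at 24 h and between 31647 and 43237 CPM at 48 h with Luc. In sham it was between 46953 and 48085 CPM. The part of these cells in the levels was not tested.

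**Figure D5:**
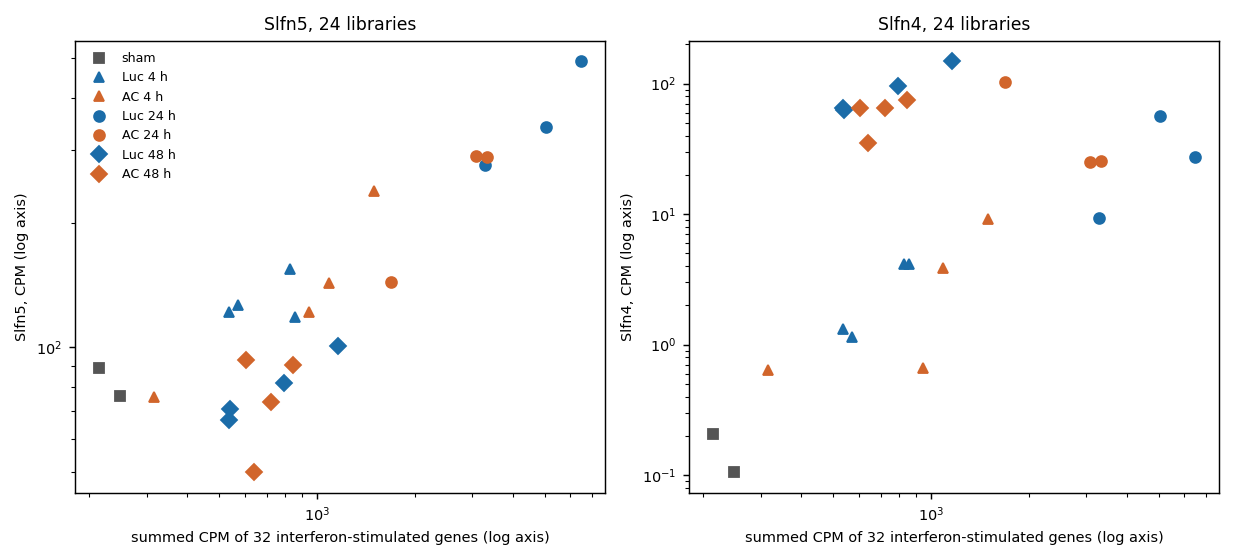
Level of Slfn5 (left) and Slfn4 (right) in CPM against the summed CPM of 32 interferon-stimulated genes, both on log axes, with 1 point per library of the second table, coloured by injection and shaped by time. Slfn5 and the sum are both highest in the Luc libraries at 24 h, where Slfn4 is at 9.26 to 56.7 CPM, below the 63.0 to 148.5 CPM of the Luc libraries at 48 h.

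The other lists at 24 h with Luc against sham gave 2 of 2 tested T and NK cell markers higher (of 14), 0 of 1 B cell marker, 1 of 6 endothelial markers higher and 1 lower, 3 of 6 fibroblast markers higher, 1 of 8 cardiomyocyte markers higher and 0 of 5 erythroid markers. Around the locus, 15 protein-coding genes lie within 250000 bases of the outermost members, and 10 of them were tested. Among these, Nle1 (log2 fold change 1.64, SE 0.22, adjusted p = 8.6e-06), a ribosome assembly factor, and Rasl10b (0.93, SE 0.26, adjusted p = 0.0077) were higher. At 48 h against 24 h with Luc, 1 was higher (Lig3) and 4 were lower (Nle1, Rasl10b, Unc45b and Zfp830).

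With AC modRNA, Slfn4 and Slfn1 were higher at 24 h than at 4 h, and Slfn5 was lower at 48 h than at 24 h. At 4 h the AC libraries were spread wide. Slfn5 was at 75.8, 238, 142.8 and 121.4 CPM in libraries 1, 2, 3 and 4, and Slfn8 at 1.13, 17.5, 10.0 and 7.35 CPM. Library 2 was the highest and library 1 the lowest for both, and the interferon-stimulated sum was 315, 1494, 1086 and 944 CPM in libraries 1, 2, 3 and 4. The erythroid sum in these libraries was 10695, 2906, 2436 and 6308 CPM, highest in library 1, and its part in these levels was not tested. From 4 h to 24 h with AC, 3 of 7 members were called higher, beside 14.9% of the genes tested higher and 3.80% lower.

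Slfn4 was at 0.64, 9.17, 3.90 and 0.66 CPM at 4 h and at 25.3, 102.9 and 25.3 CPM in the AC libraries A, C and D at 24 h (log2 fold change 3.61, SE 0.60, adjusted p = 3.8e-04). Slfn1 was between 0.59 and 5.12 CPM at 4 h and between 7.36 and 16.3 CPM at 24 h (1.76, SE 0.38, adjusted p = 0.0034). Slfn2 was called higher too (1.06, SE 0.36, adjusted p = 0.044), but the call was lost without AC 4 h library 1 or 4, AC 24 h library A or D, or any 1 of the 4 AC libraries at 48 h. It was also lost under both rescalings, with no filter, with array weights, and in a fit of the compared groups alone. Slfn5 was at 288, 143.9 and 289.9 CPM at 24 h (0.78, SE 0.30, adjusted p = 0.071). Without AC 4 h library 2, Slfn5 and Slfn8 were called higher as well, 5 members in all. The AC 24 h library C held the highest Slfn4 and the lowest Slfn5 of its group, with an interferon-stimulated sum of 1691 CPM beside 3338 and 3084 CPM in libraries A and D.

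At 48 h with AC, Slfn5 and Slfn2 were called lower than at 24 h. They are 2 of 7 members, beside 25.5% of the genes tested lower and 19.0% higher. This count is near the share over all genes and is not read as a result about the family. Slfn5 was at 49.9, 90.5, 93.2 and 73.8 CPM in the AC libraries 1, 2, 4 and 5 at 48 h (log2 fold change -1.60, SE 0.30, adjusted p = 1.9e-04), below every AC library at 24 h. Slfn2 was at 26.1, 31.5, 23.6 and 29.6 CPM (-1.01, SE 0.36, adjusted p = 0.028), and its call was lost without AC 24 h library A, without AC 48 h library 1 or 4, and under rescaling to equal totals. Slfn4 was at 35.0, 74.3, 64.6 and 65.2 CPM (0.49, SE 0.60, adjusted p = 0.529), a range that overlapped the AC libraries at 24 h. Slfn9 was at 1.04 (SE 0.44, adjusted p = 0.058), and without AC 4 h library 1 it was called higher, 3 members in all. Array weights called 5 members in this comparison, Slfn1 and Slfn9 higher and Slfn2, Slfn3 and Slfn5 lower. The share of all genes called with array weights is not given, and this count is not read as a result about the family.

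Between AC and Luc modRNA, no Schlafen gene was called at 4 h or at 24 h. At 4 h, 0 of 7 members were called and 0 had an unadjusted p under 0.05, with log2 fold changes between 0.01 (Slfn4, SE 0.56) and 0.50 (Slfn9, SE 0.41). Over all genes 0.00796% were called, a single gene, Asah1. At 24 h again 0 of 7 were called by limma, 0 had an unadjusted p under 0.05, and Asah1 was the single gene called among all tested (0.00796%). The values at 24 h lay between -0.88 (Slfn9, SE 0.47) and 0.70 (Slfn4, SE 0.65), and 5 of the 7 were below 0. Slfn5 was at 288, 143.9 and 289.9 CPM with AC against 341, 492 and 276 CPM with Luc, with overlap (-0.65, SE 0.32, adjusted p = 0.991). The 95% interval of this difference was -1.31 to 0.02, and that of Slfn4 was -0.64 to 2.04. The change of the AC effect from 4 h to 24 h was called for 0 of 7 members by limma, with 1 unadjusted p under 0.05, beside 0% of genes called higher and 0.00796% lower.

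At 48 h, Slfn9 was the one member called between AC and Luc. That is 1 of 7, beside 12.1% of the genes tested called higher and 3.27% lower. This count is near the share over all genes and is not read as a result about the family. Slfn9 was at 5.03, 7.56, 9.21 and 6.24 CPM with AC and at 1.04, 2.26, 0.74 and 4.92 CPM with Luc, without overlap (log2 fold change 1.45, SE 0.41, adjusted p = 0.020). Its close copy Slfn8 was at 7.35, 12.5, 10.4 and 10.3 CPM with AC and at 5.64, 7.81, 8.82 and 7.15 CPM with Luc, with overlap (0.41, SE 0.43, adjusted p = 0.559). The call of Slfn9 was lost without Luc library 1 or 3 or AC library 2 or 4. The difference between the AC effect at 48 h and at 24 h was 2.33 for Slfn9 (SE 0.62, adjusted p = 0.047), beside 2.23% of genes called higher and 0.335% lower, and this call was lost under 24 of the alternatives, many of which leave out a single library.

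Markers of other cells differed between AC and Luc at 48 h. Of the fibroblast markers 4 of 6 were higher with AC, among them the collagen genes Col1a1 (log2 fold change 1.84, SE 0.33, adjusted p = 7.7e-04) and Col3a1 (1.96, SE 0.35, adjusted p = 8.0e-04), and their sum was between 1737 and 2815 CPM with AC and between 783 and 1400 CPM with Luc. Of the monocyte and macrophage markers 8 of 16 were higher, with sums of 700 to 894 CPM against 389 to 630 CPM. Of the 13 neutrophil markers tested 3 were lower, with sums of 185 to 258 CPM against 249 to 841 CPM, and 2 of 8 cardiomyocyte markers were lower. No interferon-stimulated gene of the 32 was called. The part of these markers in the level of Slfn9 was not tested.

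Some other genes had levels most like a member's over the 24 libraries of the second table, by Pearson's r of log2(CPM + 1), where groups, times and library series are shared by all genes. The gene most like Slfn4 was Slfn1 (r = 0.979), and next came Cd300lf (0.957), an inhibitory receptor of myeloid cells, and Ncf1 (0.947), a subunit of the phagocyte NADPH oxidase. Over the 10 libraries of the first table these values were 0.995, 0.984 and 0.979. For Slfn1 the next genes were Cd300lf (0.960) and Spred3 (0.941). The genes most like Slfn8 were the interferon-stimulated Oasl2 (0.963) and Samd9l (0.960) and then Zcchc2 (0.928), and in the first table they were at 0.986, 0.978 and 0.970.

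The genes most like Slfn5 in the second table were Crybg1 (0.954), Ifit2 (0.947), an interferon-induced inhibitor of translation, and Tanc1 (0.943). Over the first table the likeness with Ifit2 was -0.70 and with Crybg1 -0.15, whereas Tanc1 was at 0.87. For Slfn2 they were Gcnt2 (0.916), Usp18 (0.916) and Isg15 (0.915), a ubiquitin-like protein that Usp18 removes, and for Slfn3 Parp14 (0.919), Ifih1 (0.911), a sensor of double-stranded RNA, and Trim21 (0.906), an intracellular antibody receptor. In the first table Slfn2 stood at 0.961, 0.986 and 0.988 with its 3 genes and Slfn3 at 0.791, 0.788 and 0.668. Slfn9 was most like Sulf1 (0.885), a sulfatase of the extracellular matrix, Elovl6 (0.882), which elongates fatty acids, and 9930111J21Rik2 (0.853), with 0.07, 0.73 and 0.60 in the first table. The order depends on the measure. By Spearman's rho, Gcnt2 had rank 45 for Slfn2, Crybg1 rank 32 for Slfn5 and Spred3 rank 30 for Slfn1. Slfn1 kept rank 1 for Slfn4, Oasl2 for Slfn8 and Sulf1 for Slfn9.

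Other Schlafen genes were low. Slfn10-ps, a pseudogene that shares more windows with Slfn8 and Slfn9 than any other gene, was between 0.138 and 0.393 CPM in sham and between 1.77 and 3.33 CPM at 24 h in the first table, and between 0.818 and 2.43 CPM at 24 h with Luc against 0.048 and 0.066 CPM in sham in the second. Slfn5os lies antisense to Slfn5 and was between 0.384 and 1.27 CPM in the first table. Since it is not stated whether counting used strand, reads of the 2 genes cannot be told apart. Slfn14 and Slfnl1, which are in the second table alone, reached at most 0.118 and 0.157 CPM.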

How the data were processed

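LV RNA of 34 libraries, 1 per sample, was grouped by the sample labels. For the first table the authors mapped single 50-bp reads on mm10 (STAR), divided them among RefSeq genes by expectation-maximization in Partek Flow, and scaled the libraries by TMM. The deposited values are TMM-scaled CPM. The other table holds deposited CPM with 1 added, which was subtracted. Beyond the build mm10, its processing is not given in the sources used here.

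The members and gene lists were chosen with earlier results of these data known. Genes named are the 7 members, the 3 genes of highest Pearson's r with each member over the second table, other Slfn genes, protein-coding neighbours within 250000 bases, and of each list the 3 highest genes (plus Irf7, Ifit3 and Irf9). Some genes under these rules are not reported here. Asah1 was named after its values were seen, as the single gene called.

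Tests used limma 3.58.1 in R 4.3.3 (lmFit, then eBayes fitting a mean-variance trend) on log2(CPM + 1), separately for each table, with all its groups in 1 model and no covariates, over the genes whose mean reached 1 CPM (12487 and 12555). P-values were adjusted by Benjamini-Hochberg with a threshold of 0.05. Ratios of mean CPM carry propagated SDs. Overlap of libraries between groups is a description, since groups of so few libraries can separate without a difference. Its share over all genes is given only for 24 h against sham in uninjected hearts. Libraries of the first table came from separate hearts per the study's methods. For the second the labels do not say so, and p-values measure the spread between these libraries. The precision of the second table is limited by an unknown depth. A single read of the first table is worth between 0.0313 and 0.0479 CPM, taken from the lowest value of each library. Transcript windows came from GENCODE M21 and promoters from RefSeq on GRCm38.p6, where 7 of 7 members matched. The limma script was tested on simulated data.

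Alternatives were a pseudocount of 0.1, no filter or a filter of 5 CPM, a fit of the compared groups alone, no trend, weights per library, rescaling by median ratios or to equal totals, values as deposited, a replicate block, limma-voom on estimated reads for 4 h against sham in uninjected hearts, and each library left out. Same-numbered libraries did not all deviate together, with r of deviations between -0.21 and 0.34, and were not treated as pairs. Protein measurements were not analysed here.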

Additional observations from a re-analysis of the deposited data

Results flagged for a closer look

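The effect of AC against Luc modRNA on Slfn9 differed between 24 h and 48 h in the model of all libraries, a call that most alternatives did not keep. The log2 fold change of AC against Luc was 1.45 (SE 0.41) at 48 h and -0.88 (SE 0.47) at 24 h, a difference of 2.33 (SE 0.62, adjusted p = 0.047 by limma over 12555 genes). The call was kept in 9 alternatives and lost in 24, among them both rescalings, a pseudocount of 0.1, no filter, the replicate block, and either sham library left out. All 4 AC libraries at 48 h were above all 4 Luc libraries, and all 3 AC libraries at 24 h, at 2.65 to 3.15 CPM, were below the 3 Luc libraries, at 4.01 to 11.8 CPM. This separation of few libraries was not set against its share over all genes. Between 11.2% and 15.4% of the 50-base windows of Slfn9 and Slfn8 are shared with another Schlafen gene. The Luc 24 h library C was at 11.8 CPM beside 4.01 and 4.35 CPM, and without it the difference was 1.89 and was not called. In groups of 4 libraries, 35 checks of a member marked no library as standing apart, where chance alone would mark about 1 in 20, and groups of 3, such as those at 24 h, were not checked.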

How the results depend on the processing

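Over the alternatives, the 32 log2 fold changes of members past the threshold reversed in 0 cases, kept their side of the threshold in 983 and lost it in 71. For Luc at 4 h against sham, where 0 members were called, a pseudocount of 0.1 called 1 and a fit of the compared groups alone 5. For Luc at 48 h against 24 h (7 called), equal-total rescaling left 4, and single libraries left out gave 4 to 7. For AC at 24 h against 4 h (3 called), libraries left out gave 2 to 5. For AC at 48 h against 24 h (2 called), the compared groups alone gave 4 and array weights 5, with 1 to 3 over libraries left out. For AC against Luc at 48 h (1 called), the filter of 5 CPM, under which Slfn9 is not tested, gave 0, and libraries left out gave 0 to 1. For the AC effect at 48 h minus 24 h (1 called), the count was 0 with a pseudocount of 0.1, no filter, the filter of 5 CPM, the compared groups alone, median-ratio and equal-total rescaling, and 0 to 1 over libraries left out. The cause was not tested. Counts over all genes are given below for the rescalings alone, and the counts of members under the alternatives are not read as results about the family. Rescaling to median ratios or equal totals moved the median of all genes by more than 0.1 in 9 of the second table's 12 comparisons, by -0.17 and -0.27 for Luc at 24 h against sham and by 0.22 and 0.43 for Luc at 48 h against 24 h. Over all genes, equal-total rescaling turned the split at Luc 24 h against sham from 3172 higher and 1103 lower to 1836 and 2483, at Luc 48 h against 24 h from 1170 and 4088 to 3255 and 945, at Luc 48 h against sham from 1714 and 2060 to 2502 and 1286, at Luc 24 h against 4 h from 3079 and 979 to 1708 and 1839, at AC 48 h against 24 h from 2382 and 3207 to 5275 and 1162, and at 4 h against sham in uninjected hearts from 194 and 102 to 167 and 175. Median-ratio rescaling gave 2292 and 2043 at Luc 24 h against sham, 1968 and 1788 at Luc 24 h against 4 h, 2003 and 2086 at Luc 48 h against 24 h, 1091 and 989 at AC 24 h against 4 h (from 1874 and 477), 822 and 802 for AC against Luc at 48 h (from 1516 and 410), and 162 and 127 for the AC effect at 48 h minus 24 h (from 280 and 42). Numbers shared by libraries do not pair them. With a replicate block 0 members were called in AC against Luc at 48 h and 0 in the AC effect at 48 h minus 24 h, and no other call changed in the comparisons that could be fitted with it. The comparisons of 24 h with sham, 4 h or 48 h share no numbers and could not be fitted with the block. A filter of 5 CPM leaves 5 members tested. Values under 1 CPM in sham rest on few reads, and with 2 sham libraries the spread comes from all groups.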
